A study of Mus musculus with 8 samples.

Results

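The genes described are 42 members of the ATF4 pathway, the unfolded protein response of the endoplasmic reticulum (ER) and serine and one-carbon metabolism, chosen by symbol out of 25700 gene identifiers in the count tables. All 42 had a row. They fall into 3 groups by role: 14 genes of the ATF4 response, 19 ER chaperones and quality control genes, and 9 enzymes of serine and one-carbon metabolism. Bulk RNA was sequenced from brain endothelium of C57BL/6 mouse pups at postnatal day 6, isolated by fluorescence-activated cell sorting. KO pups carried the genotype GLUT1EC-/-, a loss of the glucose transporter GLUT1 from endothelial cells (n = 4), and WT pups were wild type (n = 4). No treatment was named for either group. Most WT pups were in a different cage from the KO pups, and the cage labels do not show a shared litter. The promoter that drives the deletion is not given in the sources used here.

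ATF4 is a transcription factor whose protein is made when the initiation factor eIF2 is phosphorylated, an event set off by amino acid shortage, unfolded protein in the ER, haem shortage or viral RNA. It acts on genes for amino acid uptake and synthesis, on other stress transcription factors such as CHOP, and on serine and one-carbon enzymes. Unfolded protein in the ER also acts through ATF6 and through IRE1, which splices the Xbp1 messenger, and both routes raise chaperone genes through a promoter motif, the ER stress response element. These routes are used in many tissues. The comparison asks whether brain endothelium of the KO genotype, in which GLUT1 is targeted, carries more of these transcripts.

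The groups differ in their promoters as well as in their roles. The genes were chosen for known roles in these responses, so the motif shares follow in part from that choice and describe the lists only. In RefSeq promoters (GRCm38.p6, 250 bases before to 50 after the start), which matched 38 of the 42 members, the ER stress response element (CCAAT and CCACG separated by 9 bases of any kind) was found on either strand in 8 of 17 ER genes, in 0 of 13 genes of the ATF4 group and in 0 of 8 serine and one-carbon genes. It stood in 0.137% of all 27025 genes with a promoter in the table. The ATF4 motif TGATGNAA was found in 7 of 13 genes of the ATF4 group, 1 of 17 ER genes and 0 of 8 serine and one-carbon genes, against 4.51% of all genes. The motifs TGACGTG and TGACGTCA were each found in 1 member, Hspa5 and Ppp1r15a, and matches of different motifs overlapped in 0 member promoters. A match is a stretch of letters and was not tested as a binding site.

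The stretches with the ER element are shown because these 8 genes carry the motif for which the chaperone response is known. They are written 5′ to 3′ on the strand of the gene, and capitals mark the fixed letters of the element or of its reverse complement.
Hspa5 (chr2:34772020-34772048, plus strand): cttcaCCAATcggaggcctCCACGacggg
Hsp90b1 (chr10:86705513-86705676, minus strand): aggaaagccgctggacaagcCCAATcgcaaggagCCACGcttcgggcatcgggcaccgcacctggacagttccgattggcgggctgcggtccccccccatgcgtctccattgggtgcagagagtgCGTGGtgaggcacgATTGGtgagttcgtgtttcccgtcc
Pdia6 (chr12:17266471-17266529, plus strand): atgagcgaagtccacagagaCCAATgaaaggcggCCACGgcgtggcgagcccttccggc
Calr (chr8:84847055-84847113, minus strand): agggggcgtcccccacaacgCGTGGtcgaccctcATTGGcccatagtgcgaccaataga
Canx (chr11:50325780-50325838, minus strand): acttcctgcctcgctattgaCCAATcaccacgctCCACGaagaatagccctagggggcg
Creld2 (chr15:88819500-88819558, plus strand): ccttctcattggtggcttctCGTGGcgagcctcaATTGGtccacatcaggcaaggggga
Dnajc3 (chr14:118937807-118937865, plus strand): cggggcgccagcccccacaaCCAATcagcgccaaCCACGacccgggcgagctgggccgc
Syvn1 (chr19:6046512-6046570, plus strand): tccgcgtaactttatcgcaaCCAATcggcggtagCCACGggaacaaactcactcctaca

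The ATF4 motif was found in 7 of 13 searched genes of the ATF4 group, and Gdf15, the member with the smallest p below, was among those without a match. The search took a fixed form of the motif in a short window, so a missing match was not read as absence of control by ATF4. The stretches with that motif are shown for 4 genes of the ATF4 group whose values in every pup are given below. The fixed letters of the motif or its reverse complement are in capitals.
Asns (chr6:7693214-7693243, minus strand): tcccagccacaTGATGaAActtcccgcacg
Atf3 (chr1:191183416-191183463, minus strand): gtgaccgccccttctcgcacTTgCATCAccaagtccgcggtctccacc
Chac1 (chr2:119351029-119351076, plus strand): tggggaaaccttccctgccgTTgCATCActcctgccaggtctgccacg
Slc7a11 (chr3:50443633-50443699, minus strand): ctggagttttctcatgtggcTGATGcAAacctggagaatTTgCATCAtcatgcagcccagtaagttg

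The libraries held 20.9 to 114 M counts, where M is mega. KO pup 1 stood apart: it had 13624 detected genes against 15756 to 17082 in the others, and its log2 levels correlated at 0.913 to 0.932 with theirs. Slc2a1, which encodes GLUT1, measured 1390, 1510, 1530 and 1600 CPM (counts per M counts of the library) in KO pups 1 to 4 and 3730, 2240, 3420 and 2790 CPM in WT pups 5, 1, 2 and 3. Every KO pup lay below every WT pup (log2 fold change -1.01, SE 0.14, adjusted p 0.00619 in edgeR's quasi-likelihood test). Slc2a1 transcript thus remained in every KO pup, and these counts do not show how much GLUT1 protein was left. The summed level of 10 endothelial markers was 13400 to 15100 CPM in KO and 14200 to 15100 CPM in WT. The summed markers of other cells overlapped between the groups for 7 of 8 lists. The exception was the choroid plexus list of 4 genes, at 10.9 to 280 CPM in KO and 356 to 1840 CPM in WT. In the astrocyte list, 4 of 10 markers had an unadjusted p under 0.05 higher in KO, against 5.52% of all tested genes. Among them was Gfap, at 38.9 ± 20 CPM in KO against 14.6 ± 7.61 CPM in WT (mean ± SD of 4 pups each). Gja1, which held most of the astrocyte sum, was lower in KO, also at an unadjusted p under 0.05. Of the markers in the 8 lists, 0 were called. A list of 13 genes of the mitochondrial genome took 2.04% to 2.48% of counts in KO and 1.66% to 1.89% in WT. Of these genes 5 had a count of 0 in every library, so the share does not cover the whole mitochondrial genome. By the titles all KO pups and WT pup 5 shared a cage, whereas a second set of labels places WT pup 3 there, so cage and genotype can hardly be told apart. Under either set most WT pups were in a different cage, and the cage labels do not show whether all pups came from the same litter.

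No member of the 3 groups passed the test in either direction. edgeR's quasi-likelihood test called 0 of the 42 members at an adjusted p under 0.05 (smallest adjusted p 0.239, for Gdf15), where it called 0.389% of all 14154 tested genes. At an unadjusted p under 0.05, 3 members were higher in KO and 0 lower, which is 7.14% of the members against 11.1% of all tested genes (5.52% higher and 5.61% lower). Higher calls made up 0.276% and lower calls 0.113% of all tested genes. limma-voom called 0 members, and DESeq2 called 1, Gdf15. The median log2 fold change was -0.05 in the ATF4 group, 0.03 in the ER group and 0.08 in the serine and one-carbon group, against 0.00 over all tested genes. All 42 members passed the filter on low counts.

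The precision differed between the groups. The 95% interval of the fold change lay within 1.5-fold in either direction for 18 of 19 ER genes, 3 of 14 genes of the ATF4 group and 5 of 9 serine and one-carbon genes, against 58.3% of all tested genes. It lay within 2-fold for 19, 8 and 6 of them. A fold change of 1.5 is thus outside the intervals of nearly every chaperone gene, whereas the intervals of 11 of 14 genes of the ATF4 group reach it in at least 1 direction. The pups of a group also varied more in the ATF4 group, whose median coefficient of variation in WT was 26.2%, against 8.01% in the ER group and 14% in the serine and one-carbon group.

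**Figure D1:**
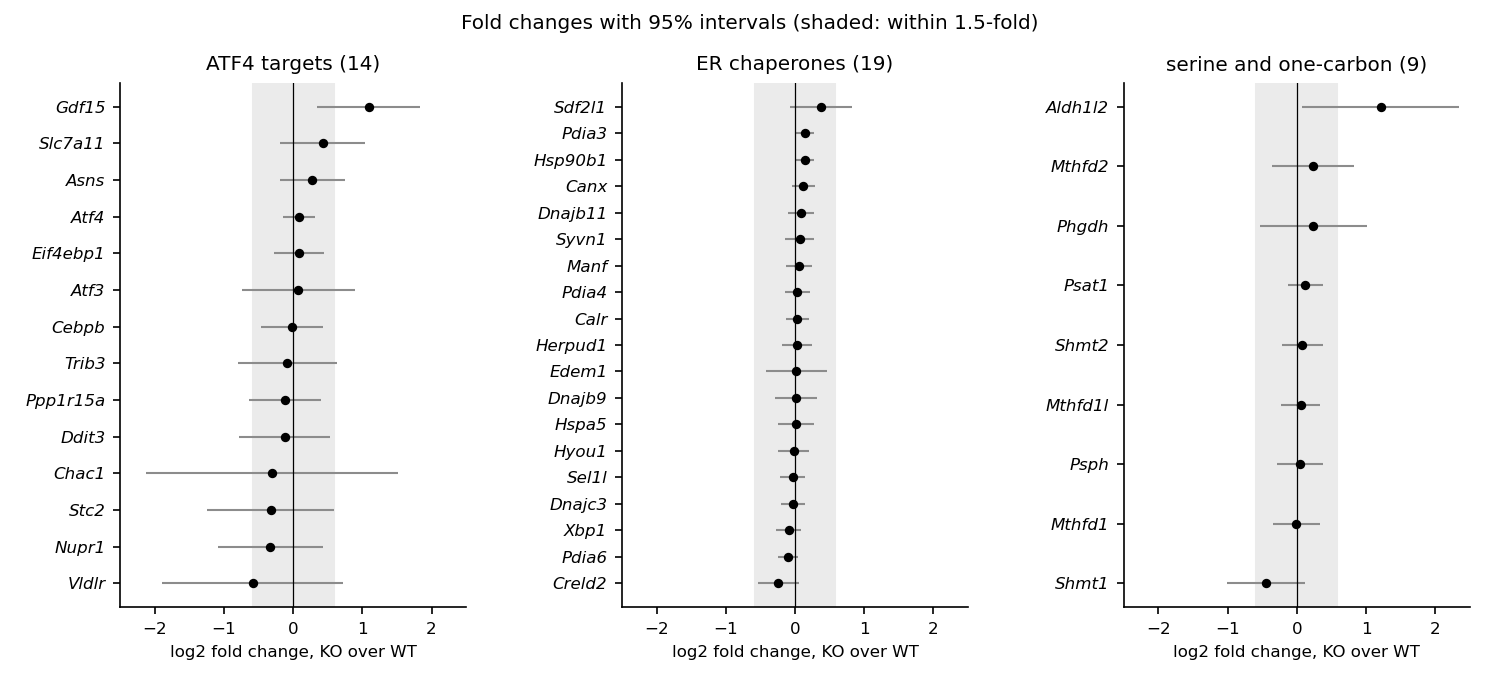
Log2 fold change of KO over WT for each of the 42 members with its 95% interval from edgeR (4 pups per group), ordered by size within each group; the shaded band is 1.5-fold in either direction. The ER intervals are narrow and 18 of 19 lie inside the band, whereas 3 of 14 intervals of the ATF4 group do.

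Levels per length set the ER group above the others in wild-type endothelium. In CPM per kb of merged exons, averaged over the 4 WT pups, the highest members were the lectin chaperone gene Calr at 222 (211 to 250), the oxidoreductase gene Pdia3 at 201 (188 to 210) and the chaperone genes Hsp90b1 at 145 (138 to 149) and Hspa5 at 120 (91.9 to 131). The median was 31.3 in the ER group, 4.63 in the ATF4 group and 2.83 in the serine and one-carbon group. Within the ATF4 group Ppp1r15a at 101, Atf3 at 93.7 and Atf4 at 83.4 CPM per kb stood far above the rest, of which the next was Cebpb at 15.1. The serine and one-carbon group was led by Shmt2 at 13.4 and Psat1 at 9.81 CPM per kb, and Aldh1l2 was the lowest member of all at 0.0943.

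**Figure D2:**
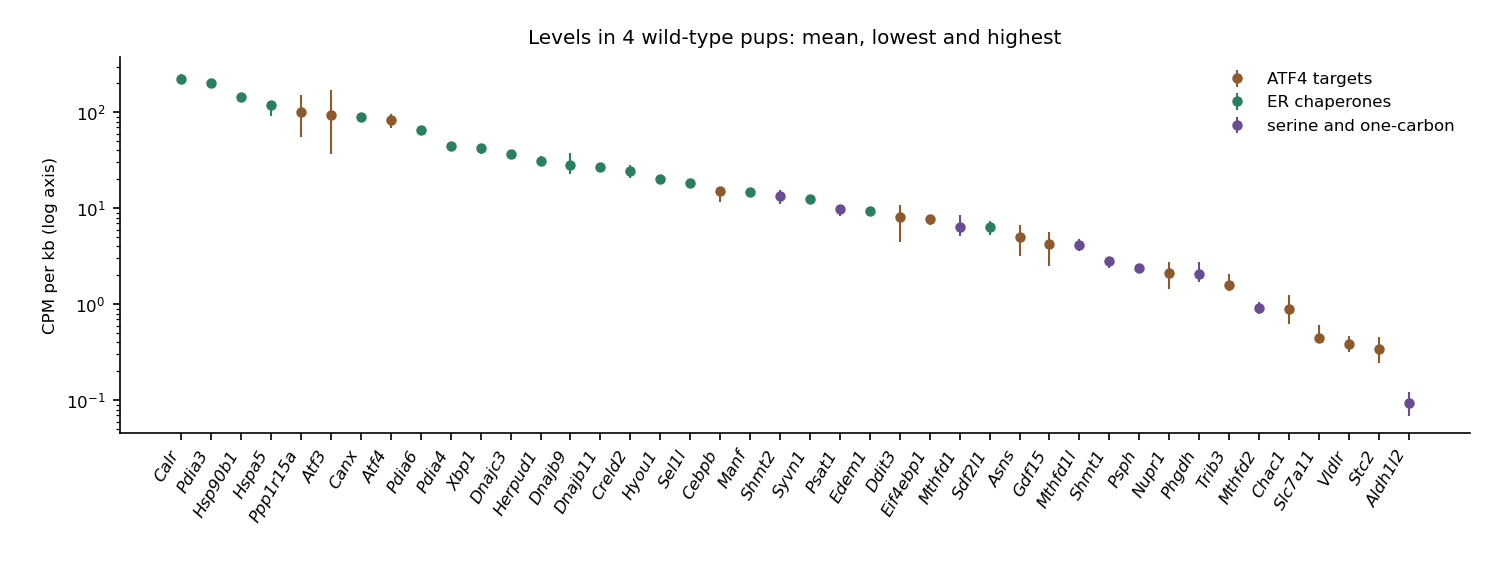
Level of each member in wild-type brain endothelial cells, as CPM per kb of merged exons on a log axis; points are means and lines run from the lowest to the highest of the 4 WT pups. Chaperone genes hold the top 4 places, from Calr at 222 to Hspa5 at 120, and Aldh1l2 is lowest at 0.0943.

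Atf4, the factor after which the first group is named, had nearly the same transcript level in both genotypes. It measured 206, 223, 214 and 191 CPM in KO pups 1 to 4 and 184, 211, 229 and 163 CPM in WT pups 5, 1, 2 and 3. The KO values all lay inside the WT range (log2 fold change 0.08, SE 0.10, adjusted p 0.834 in edgeR). ATF4 is controlled mainly through translation, which these counts do not measure, so its targets are the closer readout.

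Of the targets that mark an active ATF4 pathway, Asns, Ddit3, Trib3 and Chac1 overlapped between the genotypes. Asns, which encodes asparagine synthetase, measured 15.5, 19.8, 18.8 and 13.3 CPM in KO pups 1 to 4 and 8.71, 18.2, 14.4 and 13.8 CPM in WT pups 5, 1, 2 and 3 (log2 fold change 0.28, 95% interval -0.19 to 0.75). WT pup 5 was the lowest pup. The log2 fold change was 0.11 without it, 0.44 without WT pup 1, and 0.95 with the cage by title as a term, a fit that sets the KO pups against WT pup 5 (adjusted p 0.471 in edgeR). Ddit3, which encodes the transcription factor CHOP, measured 7.24, 16.1, 15.4 and 12.2 CPM in KO and 12.1, 17.1, 18.5 and 7.62 CPM in WT (log2 fold change -0.12, 95% interval -0.78 to 0.53). Each genotype thus had a low pup for Ddit3, KO pup 1 and WT pup 3. Ddit3 shares 68 bases of exon with the antisense gene Mars, and the strand setting of the counting is not given in the sources used here.

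Trib3, a pseudokinase gene that CHOP and ATF4 act on, measured 4.61, 1.99, 2.57 and 3.56 CPM in KO pups 1 to 4 and 4.37, 2.91, 3.29 and 2.95 CPM in WT pups 5, 1, 2 and 3 (log2 fold change -0.09, 95% interval -0.80 to 0.63). Chac1, which encodes a glutathione-degrading enzyme, had a count of 0 in KO pup 1, which allows up to 0.144 CPM there, and 1.95, 1.84 and 0.907 CPM in KO pups 2 to 4. In WT it measured 1.02, 2.05, 1.54 and 1.19 CPM. Its interval ran from -2.13 to 1.51 on the log2 scale, the widest of the ATF4 group. The cystine transporter gene Slc7a11 measured 12.2, 9.41, 4.90 and 7.0 CPM in KO and 8.39, 5.48, 5.55 and 5.56 CPM in WT (log2 fold change 0.43, 95% interval -0.19 to 1.04). KO pup 1 was highest for Slc7a11 and lowest for Chac1. Without KO pup 1 Slc7a11 measured 0.19, and without KO pup 3 0.60 (adjusted p 0.481 in edgeR).

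Gdf15 was the member with the smallest p. It encodes a secreted stress cytokine of the TGF-beta superfamily (ENSMUSG00000038508, GRCm38 chromosome 8, 70629393 to 70632456, minus strand) and is known as a target of CHOP, of ATF4 and of p53. It measured 7.20, 16.8, 24.8 and 18.0 CPM in KO pups 1 to 4 and 7.76, 8.44, 10.4 and 4.69 CPM in WT pups 5, 1, 2 and 3. KO pups 2 to 4 lay above every WT pup and KO pup 1 lay within the WT range. The log2 fold change was 1.09 (SE 0.34, 95% interval 0.35 to 1.83), with an unadjusted p of 0.00783 and an adjusted p of 0.239 in edgeR. Gdf15 was called by DESeq2 (adjusted p 0.0377) and by edgeR without KO pup 1 (log2 fold change 1.34, adjusted p 0.0487), and in 0 of the other 16 alternative settings. With either cage term it measured 1.11 and 1.83 (adjusted p 0.769 and 0.611 in edgeR).

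The remaining genes of the ATF4 group spread on both sides of 0. Vldlr, a lipoprotein receptor gene, had a log2 fold change of -0.58 (95% interval -1.89 to 0.72), with KO values from 0.384 CPM in pup 1 to 6.11 in pup 4 around a WT range of 3.20 to 4.69. It measured -1.52 without KO pup 4 (adjusted p 0.319 in edgeR) and -0.23 without KO pup 1. Nupr1 and Stc2 measured -0.33 and -0.32, Cebpb -0.02 and Eif4ebp1, which encodes an inhibitor of cap-dependent translation, 0.08. All 14 genes of this group overlapped between KO and WT.

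Atf3 was set beside genes that respond to tissue dissociation after a relation across these same pups was seen. Of the 42 members it alone passed adjustment, by Pearson's r and not by Spearman's rho. Over all 14154 tested genes 17 passed by Pearson's r. The genes adjusted over included the dissociation genes themselves, and the adjustment was not repeated without them, so the pass is a description only. In the ATF4 group 9 of 14 genes had a positive r with the summed dissociation genes. The 4 with an r above 0.8, Atf3, Ppp1r15a, Ddit3 and Atf4, overlapped between the genotypes. With the cage by the second labels as a term, which sets the KO pups against WT pup 3, they measured 1.42, 0.76, 0.74 and 0.36 on the log2 scale, and 0 of them were called (smallest adjusted p 0.664 in edgeR). Atf3, a stress transcription factor gene that is also induced rapidly as an immediate early gene, measured 124, 228, 274 and 225 CPM in KO pups 1 to 4 and 164, 198, 365 and 79.8 CPM in WT pups 5, 1, 2 and 3. WT pups 2 and 3 held the highest and the lowest value. The summed level of 16 dissociation genes, among them Fos, Jun, Egr1 and Hspa1a, was 6150, 9290, 10300 and 7960 CPM in KO pups 1 to 4 and 7030, 7930, 11600 and 4260 CPM in WT pups 5, 1, 2 and 3. Atf3 placed the 8 pups in exactly the same order.

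This relation was examined after it was seen. Over the 8 pups, Atf3 and the summed level, both as log2, had a Pearson r of 0.99 (exact permutation p = 2.48e-05, the smallest that 8 pups allow, 0.0413 adjusted over all 14154 tested genes) and a Spearman rho of 1.0 (exact permutation p = 4.96e-05, adjusted 0.1). Without WT pups 2 and 3, the pups farthest from the median, r was 0.96. Ppp1r15a, the phosphatase subunit gene that ends the eIF2 block, measured 216, 288, 306 and 286 CPM in KO pups 1 to 4 and 298, 289, 439 and 162 CPM in WT pups 5, 1, 2 and 3, again with WT pups 2 and 3 at the extremes. Its r was 0.93 (exact permutation p = 0.000694, adjusted 0.149), rho was 0.79 (exact permutation p = 0.0279, adjusted 0.606) and r without those pups was 0.73. For Ddit3 r was 0.88 (exact permutation p = 0.00265, adjusted 0.316), rho 0.81 (exact permutation p = 0.0218, adjusted 0.582) and r without those pups 0.80. For Atf4 r was 0.87 (exact permutation p = 0.00533, adjusted 0.419), rho 0.86 (exact permutation p = 0.0107, adjusted 0.538) and r without those pups 0.54. An r above 0.8 was seen in 4 of 14 genes of the ATF4 group, 3 of 19 ER genes, 0 of 9 serine and one-carbon genes and 1.85% of all tested genes. The tested genes, for that share and for each adjustment, include the 16 dissociation genes that make up the summed level. The cage of the KO pups holds 5 pups under either set of labels, fewer than the 6 for which a correlation is given here.

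**Figure D3:**
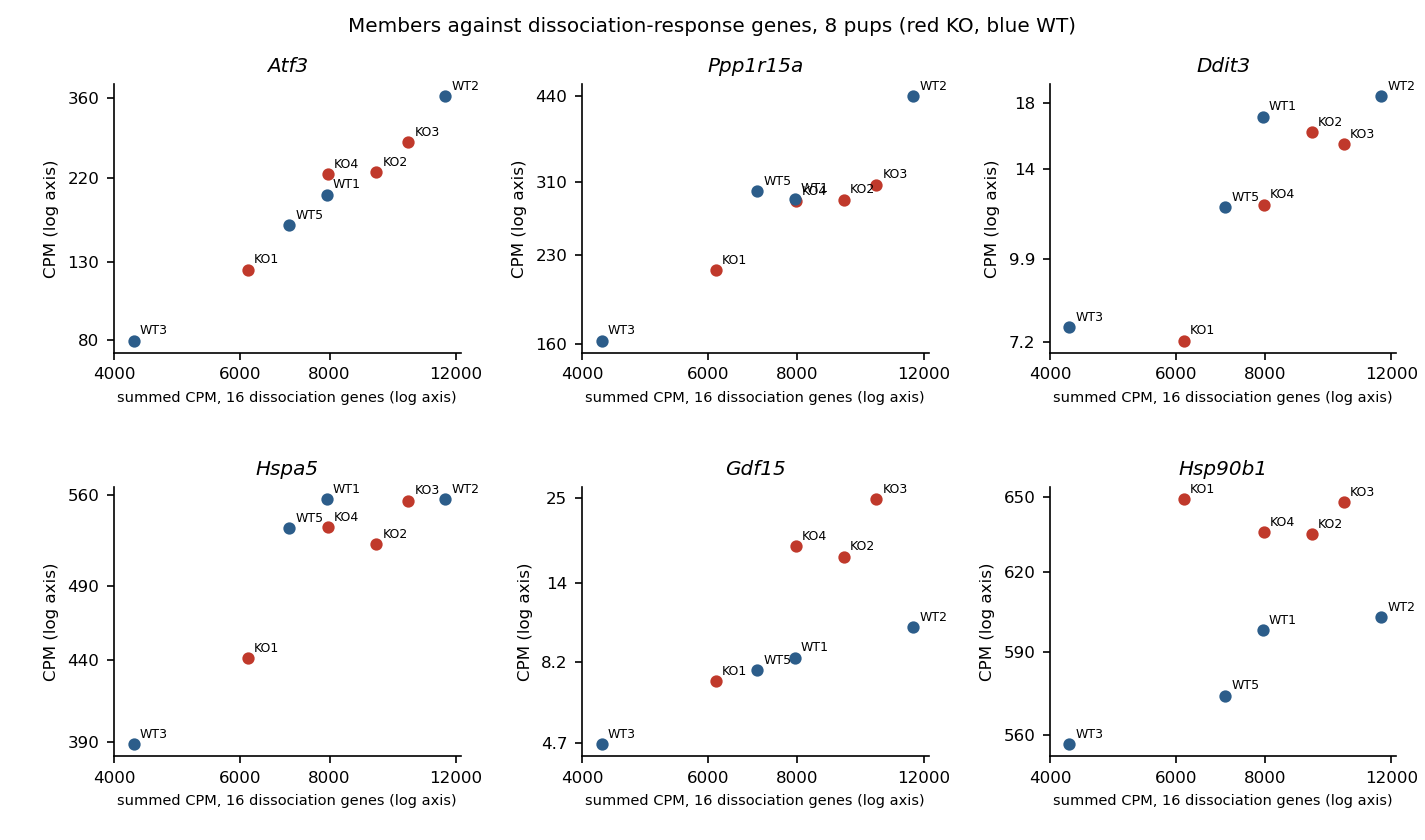
CPM of 6 members against the summed CPM of 16 dissociation genes in the same library, both on log axes, with 1 point per pup (red KO, blue WT). Atf3 climbs in step with the dissociation genes from WT pup 3 to WT pup 2 in both genotypes, while the 4 KO pups lie above the 4 WT pups for Hsp90b1, a difference that was not called.

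The dissociation genes overlapped between the genotypes, and 0 of 16 were called. Added as a term to the fit, their level left Gdf15 at 0.86 (adjusted p 0.149 in edgeR) and Atf3 at -0.06, and 0 members were called. Gdf15 itself had an r of 0.76 with the summed level (exact permutation p = 0.0264, adjusted 0.65), a rho of 0.83 (exact permutation p = 0.0154, adjusted 0.552) and an r of 0.87 without WT pups 2 and 3. KO pup 1, low for Gdf15, Ddit3 and Atf3, had the lowest summed level of the KO pups.

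The ER chaperone genes were the most even of the members. Hspa5, which encodes BiP, the chaperone that senses unfolded protein and whose promoter stretch with the ER element is shown above, measured 441, 521, 555 and 534 CPM in KO pups 1 to 4 and 533, 556, 556 and 389 CPM in WT pups 5, 1, 2 and 3. WT pup 3 and KO pup 1 were the low pups, as they were for the dissociation genes. The log2 fold change was 0.01 (SE 0.12, 95% interval -0.25 to 0.27, adjusted p 0.982 in edgeR). Xbp1, the factor activated by IRE1, measured 130, 132, 125 and 136 CPM in KO and 137, 148, 151 and 120 CPM in WT (log2 fold change -0.09, 95% interval -0.27 to 0.09). Gene counts do not separate its spliced form.

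Herpud1 and Dnajb9, both known as sensitive targets of the unfolded protein response, were level as well. Herpud1, which acts in the degradation of ER proteins, measured 63.8, 83.2, 79.0 and 71.5 CPM in KO pups 1 to 4 and 72.0, 70.5, 81.3 and 67.9 CPM in WT pups 5, 1, 2 and 3 (log2 fold change 0.03, 95% interval -0.19 to 0.25). Dnajb9, a BiP co-chaperone gene, measured 65.1, 73.6, 75.6 and 74.1 CPM in KO and 68.1, 65.3, 95 and 57.4 CPM in WT (log2 fold change 0.01, 95% interval -0.29 to 0.32). WT pups 2 and 3 were again the extremes for Dnajb9, whose r with the dissociation genes was 0.89 (exact permutation p = 0.00424, adjusted 0.394), whose rho was 0.95 (exact permutation p = 0.00114, adjusted 0.269) and whose r without those pups was 0.80.

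Small shifts without overlap were seen in 3 ER genes, 2 upward and 1 downward. Over all tested genes 7.19% did not overlap between the genotypes (3.77% higher and 3.43% lower in KO), and over the 42 members 3 were higher and 1 lower without overlap. Hsp90b1, which encodes the ER chaperone GRP94, measured 649, 635, 648 and 636 CPM in KO pups 1 to 4 and 574, 598, 603 and 557 CPM in WT pups 5, 1, 2 and 3 (log2 fold change 0.14, SE 0.06, unadjusted p 0.042 and adjusted p 0.422 in edgeR). Pdia3, the disulfide isomerase gene that works with calnexin and calreticulin, measured 692, 673, 713 and 706 CPM in KO and 592, 660, 646 and 632 CPM in WT (log2 fold change 0.14, adjusted p 0.458 in edgeR). Pdia6, another disulfide isomerase gene, measured 232, 215, 229 and 234 CPM in KO and 240, 263, 235 and 238 CPM in WT (log2 fold change -0.10, adjusted p 0.633 in edgeR). Hsp90b1 and Pdia6 both carry the ER element and lay on opposite sides of 0, and the 8 genes with the element had log2 fold changes from -0.24 to 0.14 with a median of 0.02.

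Sdf2l1, which encodes a cofactor of BiP and Dnajb11, had the largest fold change of the ER group. It measured 9.79, 6.51, 11.0 and 9.22 CPM in KO pups 1 to 4 and 6.38, 7.77, 5.87 and 8.08 CPM in WT pups 5, 1, 2 and 3, with KO pup 2 inside the WT range (log2 fold change 0.38, 95% interval -0.07 to 0.83, adjusted p 0.547 in edgeR). It is the 1 ER gene whose interval passes 1.5-fold. Creld2, a secreted ER stress gene with the element in its promoter, lay at the other end with -0.24 (95% interval -0.53 to 0.06). The other ER members lay between -0.03 and 0.12: Dnajb11, Dnajc3, Pdia4, Manf, Calr, Canx, Hyou1, Edem1, Sel1l and Syvn1. Edem1, a mannosidase-like gene of ER-associated degradation, was low in KO pup 1 alone, at 34.7 CPM against 55.6 to 81.2 in the other pups.

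**Figure D4:**
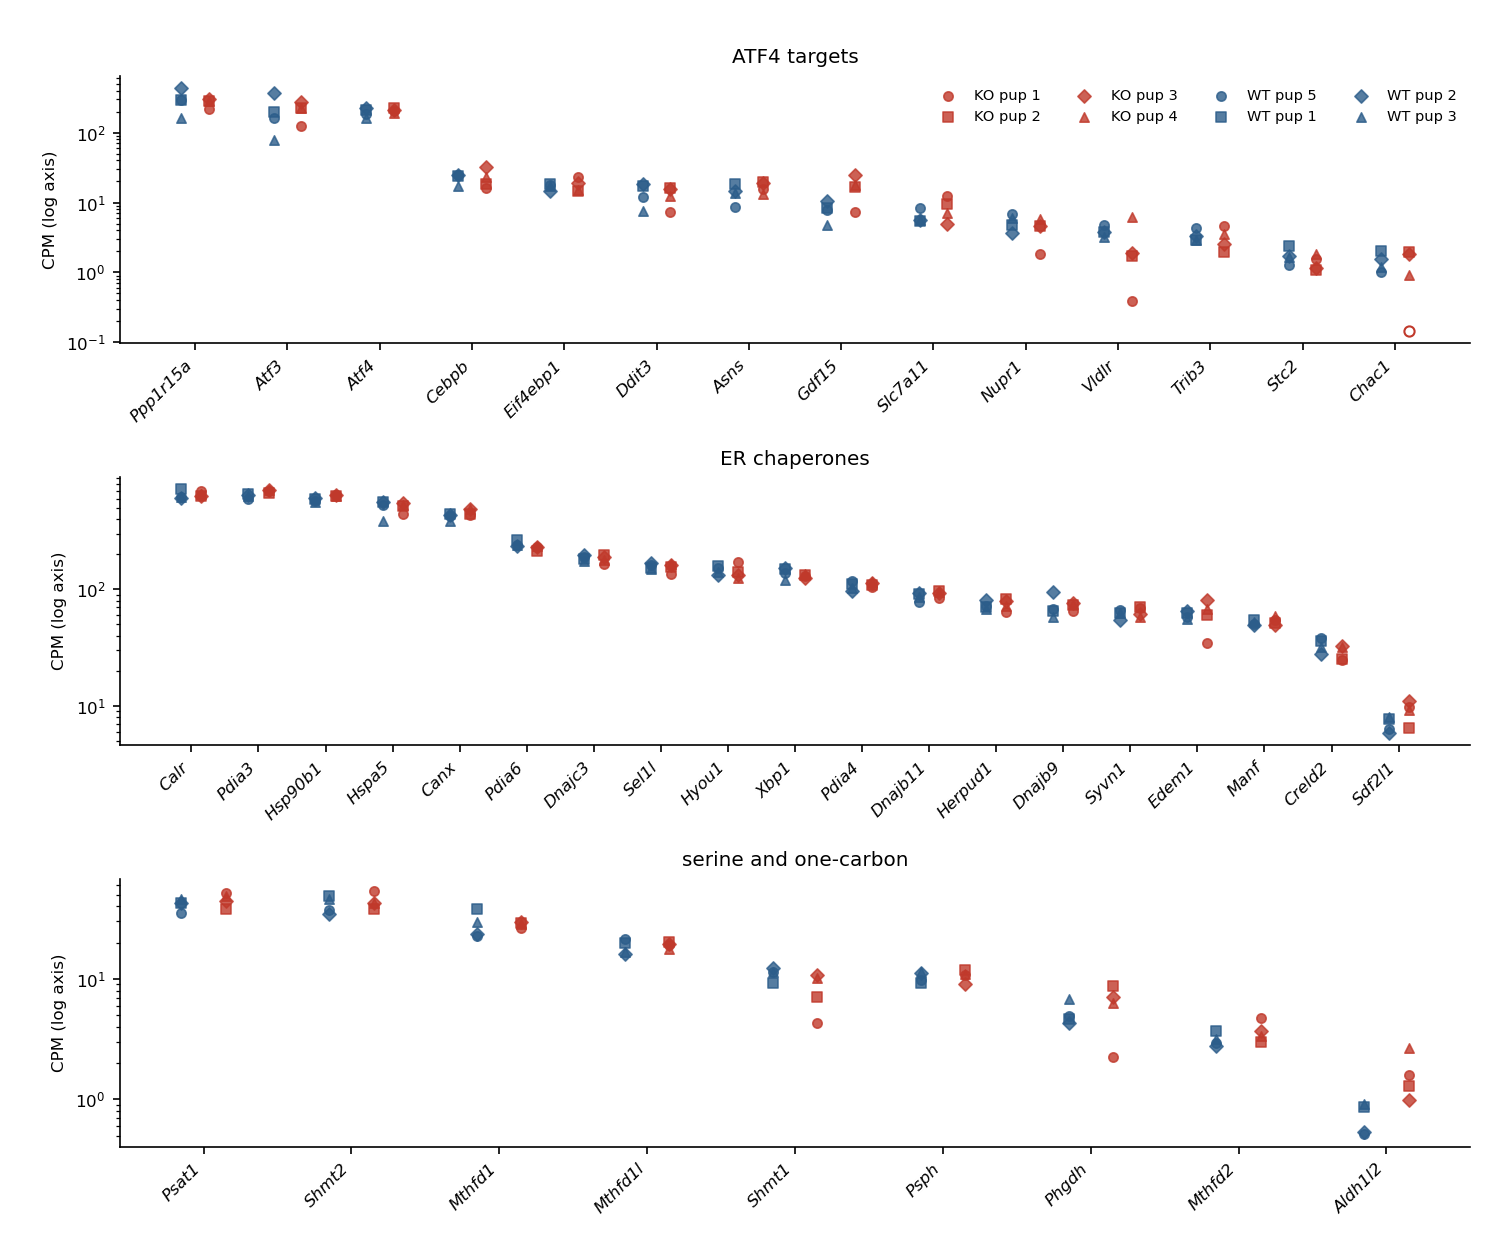
CPM of every member in every library on log axes, with WT pups in blue and KO pups in red and the members of each group ordered by their WT mean; the open circle for Chac1 is a count of 0 drawn at the 0.144 CPM that it allows. KO pup 1 is the lowest circle for Vldlr, Nupr1, Edem1, Phgdh and Shmt1, and the KO and WT points of most members overlap.

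The enzymes that build serine from a glycolytic intermediate were not called. Phgdh, the first enzyme of that route, measured 2.25, 8.66, 7.03 and 6.30 CPM in KO pups 1 to 4 and 4.96, 4.65, 4.29 and 6.78 CPM in WT pups 5, 1, 2 and 3 (log2 fold change 0.23, 95% interval -0.54 to 1.01). KO pup 1 was the lowest of the 8 pups and KO pup 2 the highest. Psat1, the aminotransferase of the second step, measured 51.5, 38.0, 44.3 and 48.3 CPM in KO and 35.3, 42.9, 42.7 and 46.0 CPM in WT (log2 fold change 0.12, 95% interval -0.13 to 0.38). Psph, the phosphatase of the last step, measured 10.7, 11.9, 9.15 and 10.9 CPM in KO and 9.73, 9.30, 11.1 and 11.4 CPM in WT (log2 fold change 0.04, 95% interval -0.29 to 0.37). Phgdh and Psat1 are also strongly expressed by astrocytes. The 10 astrocyte markers summed to 331 to 450 CPM in KO and 345 to 413 CPM in WT, but Gja1 held most of that sum. Without Gja1, a choice made after the values were seen, the 9 others summed to 84 to 188 CPM in KO and 55.9 to 100 CPM in WT. Among these 9, Fgfr3, Gjb6 and Sox9 had slightly lower means in KO than in WT. Gfap, Aqp4, Slc1a2 and Aldoc had log2 fold changes of 1.43, 1.13, 1.09 and 0.90 and Gja1 of -0.23, each with an unadjusted p under 0.05, and 0 of the 10 were called (smallest adjusted p 0.237 in edgeR). Their part in the serine and one-carbon values was not tested.

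The mitochondrial one-carbon enzymes Shmt2 and Mthfd2, known as ATF4 targets, overlapped between the genotypes. Shmt2, which passes the carbon of serine to folate, measured 53.6, 38.1, 42.3 and 42.4 CPM in KO pups 1 to 4 and 37.5, 48.3, 34.4 and 46.2 CPM in WT pups 5, 1, 2 and 3 (log2 fold change 0.08, 95% interval -0.22 to 0.38). Mthfd2, a folate dehydrogenase gene typical of dividing cells, measured 4.70, 2.98, 3.72 and 3.37 CPM in KO and 2.92, 3.70, 2.79 and 3.20 CPM in WT (log2 fold change 0.23, 95% interval -0.36 to 0.82). The cytosolic enzymes Shmt1 and Mthfd1 measured -0.44 and -0.01 and the mitochondrial Mthfd1l 0.06. Shmt1 was 4.27, 7.13, 10.7 and 10.1 CPM in KO and 11.3, 9.18, 12.2 and 11.3 CPM in WT, with KO pups 1 and 2 below every WT pup (95% interval -1.01 to 0.12).

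Aldh1l2, the mitochondrial 10-formyltetrahydrofolate dehydrogenase, was the 1 member outside the ER group without overlap (ENSMUSG00000020256, GRCm38 chromosome 10, 83487450 to 83534140, minus strand). It measured 1.58, 1.28, 0.981 and 2.67 CPM in KO pups 1 to 4, from 24 to 112 counts, and 0.512, 0.858, 0.538 and 0.922 CPM in WT pups 5, 1, 2 and 3, from 13 to 60 counts. KO pup 3 and WT pup 3 nearly touched. The log2 fold change was 1.21 (SE 0.51, 95% interval 0.08 to 2.34, adjusted p 0.408 in edgeR), and 0.85 without KO pup 4. Aldh1l2 shares 1056 bases of exon with the antisense gene D10Wsu102e, at 12.8 to 24.2 CPM in KO and 21 to 22.9 CPM in WT, and without a known strand setting their reads cannot be told apart.

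Seen by pup, the 3 groups did not move as a block with genotype. The mean log2 CPM of the ATF4 group was 3.04, 3.77, 3.87 and 3.87 in KO pups 1 to 4 and 3.74, 3.88, 3.90 and 3.41 in WT pups 5, 1, 2 and 3. Its lowest pups were KO pup 1 and WT pup 3. In KO pup 1, 5 of the 14 genes of this group were at their lowest and 3 at their highest. Those at their lowest included Chac1, at a count of 0, and Vldlr, at 0.384 CPM. The ER group stayed between 6.98 and 7.12 in KO and between 6.95 and 7.09 in WT, and the serine and one-carbon group between 3.35 and 3.63 in KO and between 3.23 and 3.49 in WT. KO pup 1 held the lowest value of 12 and the highest of 8 of the 42 members, and WT pup 3 the lowest of 9 and the highest of 0.

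Other genes of the same pathways gave few calls. Of 16 sensors and regulators, such as the eIF2 kinases, Ern1 and Atf6, 0 were called by edgeR and 0 had an unadjusted p under 0.05, and the smallest p values were those of the kinase genes Eif2ak2 and Eif2ak1, at 0.26 and 0.16 on the log2 scale. Of 20 tested further ATF4 targets 2 were called, both higher: Sesn2, an inhibitor of mTORC1 signalling, at 33.8 ± 5.79 CPM in the 4 KO pups against 18.2 ± 2.69 CPM in the 4 WT pups (mean ± SD, adjusted p 0.0318 in edgeR), and Cdkn1a, which encodes p21, at 443 ± 39.9 and 266 ± 37.5 CPM (adjusted p 0.0111 in edgeR). Another 2 of the 20, the amino acid transporter genes Slc1a4 and Slc7a1, were lower without overlap at an unadjusted p under 0.05, at -0.27 and -0.32 (adjusted p 0.17 and 0.226 in edgeR). Of the 20, 2 genes were higher and 2 lower without overlap, and of the 16 sensors and regulators 1 was higher and 0 lower. Over all tested genes 3.77% were higher and 3.43% lower without overlap. Over all tested genes 0.389% were called and 11.1% had an unadjusted p under 0.05. Sesn2 and Cdkn1a are also known targets of p53. In a list of 8 p53 targets that was chosen with their calls known, and so is a description only, all 8 were called higher, with a median log2 fold change of 1.08. Cdkn1a is in that list, and Phlda3 measured 34.7 ± 3.42 CPM in KO against 2.85 ± 0.87 CPM in WT (mean ± SD of 4 pups each). Without KO pup 2 or WT pup 1, 0 genes of these lists were called, and without KO pup 3, KO pup 4, WT pup 5, WT pup 2 or WT pup 3, 1 was. With either cage term 0 were called.

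Of 13 aminoacyl-tRNA synthetase and tRNA export genes, a set that ATF4 is known to raise, 0 were called and 1, Lars, had an unadjusted p under 0.05, with Lars at -0.23 and Sars at 0.14, and all 13 intervals lay within 1.5-fold. Of 22 tested further ER genes 0 were called and 2 had an unadjusted p under 0.05, both lower, with the disulfide isomerase gene Pdia5 at -0.52 (adjusted p 0.186 in edgeR) and the ER reductase gene Dnajc10 at -0.21. Of 20 tested further folate and glycine genes 0 were called and 3 had an unadjusted p under 0.05 (2 higher, 1 lower), with Aldh1l1, the cytosolic relative of Aldh1l2 and an astrocyte marker, at 1.03 (4.83 ± 1.30 CPM in the 4 KO pups against 2.38 ± 0.892 CPM in the 4 WT pups, mean ± SD, adjusted p 0.269 in edgeR) and Amt, of the glycine cleavage system, at -0.38. The median log2 fold changes of these 5 lists lay between -0.06 and 0.12. DESeq2 called 4 genes over these lists and limma-voom 2.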

How the data were processed

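The members and gene lists were chosen with earlier results of these data known. The authors deposited 1 table of raw counts per gene for each of 8 libraries (stranded poly(A) RNA, single reads of 100 bp, intended depth about 20 M reads, per the labels' protocols). STAR, featureCounts and GRCm38 are named in the submitters' processing notes. No version, annotation release or setting for strand is given in the sources used here. Symbols, positions and merged exon lengths came from GENCODE M21 (GRCm38). Counts were filtered by filterByExpr (minimum count 10, minimum total 15), scaled by TMM (factors 0.978 to 1.026) and fitted with genotype as the single term by edgeR 4.0.16 in R 4.3.3 (quasi-likelihood F test), with Benjamini-Hochberg adjustment over 14154 genes and a threshold of 0.05. CPM were TMM-scaled, and log2 CPM used a prior count of 2. The smallest chi-square statistic per gene between any pair of libraries was 16.3, so no pair looked like a repeated deposit. In simulated counts the fit called 91 of 100 genes changed 2-fold, 48 of 100 changed 1.5-fold and 12 of 13720 unchanged genes, for well-expressed genes only. The median SE was 0.31 in the ATF4 group against 0.15 over all tested genes, so these shares need not hold for that group. P-values measure the spread between pups. A count of 0 allows 3 counts, for counting error only. Alternatives were DESeq2 1.42.0, limma-voom (limma 3.58.1), other scaling and filters, cage terms, a pup-number block and each library left out. Values in every pup are given for all genes fixed by the naming rule (pathway anchors, members called, members without overlap between groups and the 3 members of each group with the smallest p). Atf3, Ppp1r15a, the dissociation relation and the astrocyte sum without Gja1 were added after their values were seen.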

Additional observations from a re-analysis of the deposited data

Results flagged for a closer look

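Among 84 groups of 4 pups (42 members in each genotype), 4 held a pup whose gap to its nearest neighbour exceeded Dixon's 95% critical value for 4 samples, which is 4.76% where chance gives about 1 in 20. All 4 were in WT. WT pup 5 was high for Slc7a11 (8.39 CPM, gap 0.969 of the range), WT pup 1 was high for Calr (720 CPM, 0.914), and WT pup 3 was low for Hspa5 (389 CPM, 0.881) and Cebpb (17.5 CPM, 0.842).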

How the results depend on the processing

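Members called numbered 0 in every alternative except DESeq2 (1) and without KO pup 1 (1), Gdf15 in both, and ranged from 0 to 1 over the left-out libraries. Members with an unadjusted p under 0.05 numbered 0 to 6 higher and 0 to 2 lower over the alternatives. Of all genes, 39 were called higher and 16 lower. DESeq2 called 165 and 174, either cage term called 10 higher, with 6 lower by title and 0 lower by the second labels, and the 5 pups of the KO cage by title gave 10 higher. Each of these cage fits sets the 4 KO pups against a lone WT pup in their cage, which is assumed to vary like the others, so fewer calls there do not show a weaker effect. Without the filter on low counts 38 were lower, and with the dissociation level as a term, added after the data were seen, 48 were lower. Leaving out libraries gave 25 (KO pup 2) to 60 (KO pup 1) higher and 6 (KO pup 3) to 27 (WT pup 3) lower, with 25 lower without KO pup 1. Of the further pathway genes DESeq2 called 4, and either cage term and the KO cage alone 0, with 0 to 2 over left-out libraries. By the second cage labels the median log2 fold change was 0.32 in the ATF4 group, 0.11 in the ER group and -0.06 in the serine and one-carbon group, which was 0.29 by title and within that cage, and Slc2a1 was -0.89 (adjusted p 0.331 in edgeR). The cause of these shifts was not tested.

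A block for pup number called 11 genes higher, 0 lower and 0 pathway genes, and gave Slc2a1 at -0.91 (adjusted p 0.0931 in edgeR). Same-numbered pups deviated with correlations of -0.03, 0.03 and -0.07, so the numbers do not pair the pups. Under the block Manf measured -0.01, Hyou1 0.05, Edem1 -0.14 and Psph 0.00, and Vldlr moved from -0.58 to -1.61 (adjusted p 0.7 in edgeR).

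Other changes of sign concerned members that were not called. With the cage by title, and within that cage, Ddit3 measured 0.07, Chac1 0.20, Slc7a11 0.00, Stc2 0.16, Pdia4 -0.10, Syvn1 -0.03, Mthfd1 0.33 and Mthfd1l -0.16, and Hspa5 -0.06 and -0.05. By the second labels Ddit3 measured 0.74, Trib3 0.11, Cebpb 0.36, Ppp1r15a 0.76, Xbp1 0.13, Dnajc3 0.05, Hyou1 0.02, Sel1l 0.05, Phgdh -0.16, Psat1 -0.01, Psph -0.10 and Shmt2 -0.07. With the dissociation level Atf3 measured -0.06, Hspa5 -0.05, Dnajb9 -0.05, Herpud1 -0.02, Edem1 -0.09 and Mthfd1 0.00, and with limma-voom Edem1 -0.02 and Mthfd1 0.04. Over left-out libraries Atf3 ranged from -0.19 to 0.53, Cebpb from -0.24 to 0.11, Chac1 from -0.67 to 0.09, Ddit3 from -0.32 to 0.06, Dnajb9 from -0.08 to 0.18, Dnajc3 from -0.08 to 0.02, Edem1 from -0.15 to 0.21, Eif4ebp1 from -0.06 to 0.17, Herpud1 from -0.04 to 0.09, Hspa5 from -0.10 to 0.08, Hyou1 from -0.13 to 0.03, Mthfd1 from -0.11 to 0.16, Mthfd1l from -0.01 to 0.13, Pdia4 from -0.01 to 0.07, Ppp1r15a from -0.32 to 0.13, Psph from -0.03 to 0.10, Sel1l from -0.07 to 0.03, Shmt2 from -0.02 to 0.16 and Trib3 from -0.31 to 0.07. Aldh1l2, at 13 to 112 counts, is limited by depth and failed the stricter filter on low counts.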
